A study of Mus musculus with 13 samples.

Results

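The 10 genes described here encode the enzymes that add and remove O-GlcNAc, and the enzymes that make, salvage or break down the amino sugars from which O-GlcNAc is made. They were chosen by name for these roles, with earlier results of these data known: Ogt and Mgea5 for O-GlcNAc cycling, Gfpt1, Gfpt2, Gnpnat1, Pgm3 and Uap1 for the hexosamine pathway from glucose, Nagk for salvage, and Amdhd2 and Gnpda1 for breakdown. They are 10 of the 26797 genes listed for the replicate libraries and 10 of the 49671 genes in the joint count table, and all 10 had reads enough to be tested. O-GlcNAc is a single sugar, N-acetylglucosamine, placed on serine or threonine of nuclear and cytoplasmic proteins.

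The hexosamine pathway draws fructose-6-phosphate and glutamine into glucosamine-6-phosphate through GFAT, its rate-limiting enzyme, which exists in forms encoded by Gfpt1 and Gfpt2. GNPNAT1 acetylates that product, PGM3 isomerizes it and UAP1 joins it to uridine diphosphate to give UDP-GlcNAc, the donor for OGT and also for the synthesis of N-glycans and hyaluronan. OGT is the sole nuclear and cytoplasmic transferase, is required for ES cell survival, and is opposed by the O-GlcNAcase encoded by Mgea5 (also named Oga).

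The study asked whether O-GlcNAc takes part in the silencing of methylated retrotransposon promoters, and RNA from mouse ES cells was sequenced for that purpose. The WT group was 3 libraries of AinV15, an ES cell line with the reverse tetracycline transactivator and a site for cassette exchange, left untreated. The Dnmt1-null group was 3 libraries of an untreated line homozygous for the C allele of Dnmt1, which lacks the maintenance DNA methyltransferase and is demethylated genome-wide. WT and Dnmt1-null cells are thus separate lines, so genotype and line cannot be told apart. In the joint count table, 4 single libraries were present: 1 further WT library, 1 further Dnmt1-null library, 1 of AinV15 cells expressing dCas9-OGA and 1 of AinV15 cells expressing dCas9-OGA-D242A. In dCas9-OGA a bacterial O-GlcNAcase is fused to a catalytically inactive Cas9, and D242A is a mutation that removes its glycosidase activity. Both fusions were induced from a doxycycline-responsive cassette with 1 µg/mL doxycycline for 48 h, with 4 guide RNAs directed at intracisternal A-type particle (IAP) retrotransposons. The single WT and Dnmt1-null libraries carry no label that ties them to a sample. Their genotype is known only from the column names, and their line and treatment are not given. The bacterial fusion is not the Mgea5 gene, and reads counted on Mgea5 are those of the mouse gene.

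Nothing in the labels says whether replicates came from separate cultures, so p-values measure the spread between these libraries, which may be technical. The replicate libraries held 26846275 to 37112247 reads on genes and the single libraries 18693531 to 25097983. Dnmt1 itself, the check of the labels, had normalized values of 308 to 352 in WT and 73.6 to 77.6 in Dnmt1-null, a log2 difference of −2.14 (SE 0.05, adjusted p = 1.1e-20, limma). In the single libraries, as cpm (counts scaled to a common library total), it was 455 for WT, 62.9 for Dnmt1-null, 546 for the active fusion and 376 for the inactive one. Summed markers of ES cells overlapped between the replicate groups, at 5353 to 5501 in WT and 5161 to 5558 in Dnmt1-null over the 7 of 8 listed genes present (1 higher and 3 lower). Summed fibroblast markers were 1121 to 1595 in WT and 287 to 316 in Dnmt1-null, with 8 of 8 lower and Lum under 1 in every library. Markers of 2-cell-like cells summed to 648 to 668 in WT and 231 to 271 in Dnmt1-null, with 8 of 10 lower and Tcstv1 under 1 in every library. Primitive endoderm markers summed to 119 to 121 in WT and 176 to 185 in Dnmt1-null (5 of 6 higher), and trophoblast markers to 56.7 to 58.5 and 77.9 to 85.5 (4 of 5 tested higher and 1 lower, with Elf5 under 1). The part of these other cell types in the differences given here was not tested.

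Promoters are shown for the enzymes with the largest differences and for Ogt, because the groups differ in a DNA methyltransferase and CpG is the site it methylates. RefSeq windows of 300 bases around the transcription start (GRCm38.p6) were matched for 8 of the 10 genes. Gnpnat1 and Gnpda1 were not matched. The stretches upstream of the annotated gene follow 5′ to 3′ on the strand of the gene, with each CpG in capitals. They are, in order, chrX:101639801-101640050 on the plus strand with 15 CpG, chr6:87042596-87042845 on the plus strand with 32, chr9:86571843-86572092 on the minus strand with 28, and chr17:24163767-24163983 on the minus strand with 8.
Ogt: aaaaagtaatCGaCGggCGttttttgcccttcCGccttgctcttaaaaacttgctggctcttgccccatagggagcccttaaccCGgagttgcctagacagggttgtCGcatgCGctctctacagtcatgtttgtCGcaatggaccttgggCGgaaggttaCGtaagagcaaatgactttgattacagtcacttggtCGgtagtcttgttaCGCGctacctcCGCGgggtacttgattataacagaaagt
Gfpt1: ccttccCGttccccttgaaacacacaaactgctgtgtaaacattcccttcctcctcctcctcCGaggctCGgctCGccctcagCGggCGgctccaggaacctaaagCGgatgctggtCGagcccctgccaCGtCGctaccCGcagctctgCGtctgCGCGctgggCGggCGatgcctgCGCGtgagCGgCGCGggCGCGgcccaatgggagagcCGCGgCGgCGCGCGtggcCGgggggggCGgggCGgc
Pgm3: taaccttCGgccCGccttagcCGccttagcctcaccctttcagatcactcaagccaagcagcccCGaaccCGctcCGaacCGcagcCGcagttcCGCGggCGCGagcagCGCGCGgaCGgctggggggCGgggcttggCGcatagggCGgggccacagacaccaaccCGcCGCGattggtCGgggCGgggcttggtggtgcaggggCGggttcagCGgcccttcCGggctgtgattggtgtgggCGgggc
Amdhd2: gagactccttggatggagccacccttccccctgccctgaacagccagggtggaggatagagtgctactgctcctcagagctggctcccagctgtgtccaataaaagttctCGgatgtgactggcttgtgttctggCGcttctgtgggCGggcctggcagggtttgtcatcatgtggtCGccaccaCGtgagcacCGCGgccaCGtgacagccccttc

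In the whole 300-base windows, CpG counts were 38 for Gfpt1, 33 for Pgm3, 28 for Uap1, 26 for Mgea5, 17 for Nagk, 16 for Amdhd2 and 15 for Gfpt2. Ogt has a pair of windows, with 20 and 14. Each of these is above the median of 7 over all 32851 RefSeq promoter windows of this kind. The windows of genes that were higher in Dnmt1-null (Ogt, Gfpt1, Pgm3) held 14 to 38 CpG and those of genes that were lower (Mgea5, Gfpt2, Nagk, Amdhd2) 15 to 26, ranges that overlap. Methylation of these windows was not measured here. Motifs of the unfolded protein and amino acid stress responses were searched on both strands of the same windows, because factors of those responses are known to act on hexosamine genes. None of the windows of the 8 genes held the ER stress response element, which 0.119% of all windows hold, the unfolded protein response core TGACGTGG (0.676%), the cyclic AMP response element TGACGTCA (1.79%) or the amino acid response element TGATGNAA (3.97%). This says only that these letters are not in these windows.

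Levels were first compared among the 10 genes, per kilobase of exon, on the scale of normalized values (reads divided by a scaled library size). In WT, Gnpda1, which deaminates glucosamine-6-phosphate back towards glycolysis, stood highest at 22.2 ± 1.09 per kb (SD, n = 3). Mgea5 at 15.8 ± 0.336, Gnpnat1 at 15.5 ± 1.75, Amdhd2 at 14.6 ± 0.21, Ogt at 14.4 ± 0.783, Uap1 at 13.6 ± 0.496 and Gfpt2 at 12.7 ± 0.605 followed, and each overlapped its neighbour in that order over the 3 libraries. Pgm3 at 7.29 ± 0.188, Nagk at 6.92 ± 0.0561 and Gfpt1 at 5.96 ± 0.157 formed the lower end, and did not overlap one another. Gfpt1 and Gfpt2 encode the same enzymatic step, and per kb the level of Gfpt2 was above that of Gfpt1 in each WT library. Among 14767 protein-coding genes tested, the WT levels per kb of the 10 genes lay between the percentile 57.6 (Gfpt1) and the percentile 84.0 (Gnpda1), so every step was expressed above the median gene.

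In Dnmt1-null the order was different. Gnpnat1 was first at 22.8 ± 1.91 per kb, ahead of Gnpda1 at 19.1 ± 1.13 and Ogt at 19.0 ± 1.01, which overlapped each other. Mgea5 (13.7 ± 0.696) and Uap1 (12.7 ± 0.321) overlapped, and Pgm3 (11.2 ± 0.0513) and Gfpt2 (10.2 ± 0.469) came next without overlap. Gfpt1 (8.91 ± 0.14) and Amdhd2 (8.86 ± 0.146) overlapped, and Nagk was last at 5.44 ± 0.157. Amdhd2 thus had rank 4 in WT and rank 9 in Dnmt1-null, and Pgm3 rank 8 and rank 6. The order depends on the length used: per kb of the longest transcript Amdhd2 had ranks 2 and 6 and Pgm3 ranks 9 and 8, Nagk was above Pgm3 in WT, and Gnpnat1 and Gnpda1 overlapped in Dnmt1-null.

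The comparison of Dnmt1-null with WT asked whether the enzymes of O-GlcNAc differ in RNA between methylated and demethylated ES cells. Ogt and 3 of the 5 genes of hexosamine synthesis (Gfpt1, Gnpnat1, Pgm3) were higher in Dnmt1-null, by 1.32 to 1.53-fold. Mgea5, Gfpt2 and all 3 genes of salvage and breakdown (Nagk, Amdhd2, Gnpda1) were lower, by 1.16 to 1.64-fold. Uap1 did not pass the test. In all, 9 of 10 passed an adjusted p of 0.05 (limma over 17297 genes, Benjamini-Hochberg), 4 higher and 5 lower, where 71.2% of all genes tested passed, 35.8% higher and 35.4% lower. The count was also 9 of 10 with edgeR (70.8% of all genes), DESeq2 (65.9%) and a replicate block (72.6%). The values of 9 of 10 did not overlap between groups, where 73.3% of all genes did not. Counts of this size are thus near the background of a comparison in which most genes differed. Differences were moderate: 2 of 10, Pgm3 and Amdhd2, passed the test and reached 1.5-fold, where 31.1% of all genes did, and none of the 10 reached 2-fold. The median log2 difference of the 10 genes was −0.15 and of all genes 0.0069, and the median size without sign was 0.37 and 0.36. In bulk RNA, fewer cells that express a gene and less RNA per cell cannot be told apart.

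**Figure D1:**
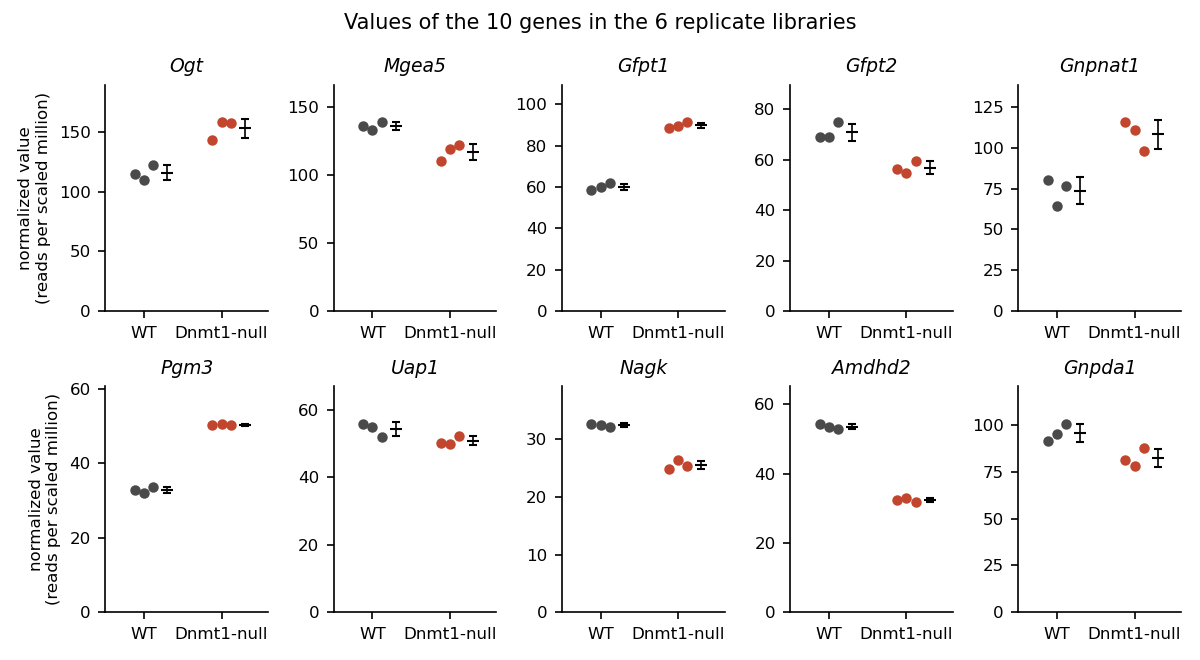
Normalized value (reads divided by a scaled library size, axis from 0) of each of the 10 genes in the 3 WT and 3 Dnmt1-null replicate libraries. Points are libraries and bars show mean ± SD; the groups are apart for every gene but Uap1, where WT spans 52.1 to 55.9 and Dnmt1-null 50.0 to 52.4.

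For Ogt (chrX:101640060-101684351, plus strand; mm10, gene models of GENCODE vM21), normalized values were 115, 109.9 and 122 in WT and 144, 158 and 157 in Dnmt1-null. Every Dnmt1-null library was above every WT library, and the 2 groups were 1.32-fold apart. The log2 difference was 0.40 (SE 0.05, adjusted p = 3.4e-07, limma). Other genes of the X chromosome had a median log2 difference of 0.03 in the same comparison.

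Mgea5 (chr19:45750259-45783837, minus strand) removes the sugar that OGT adds, and its normalized values were 136, 133 and 139 in WT and 111, 119 and 122 in Dnmt1-null. The Dnmt1-null libraries were all below the WT libraries, by a log2 difference of −0.21 (SE 0.05, adjusted p = 5.7e-04). The antisense gene Gm15491 lies over 6.41% of its exons and had a value of at most 0.279 in any replicate library.

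Since the transferase and the hydrolase moved apart, their ratio was computed within each library, where no scaling enters. The ratio of Ogt to Mgea5 reads was 0.843, 0.825 and 0.88 in WT and 1.30, 1.32 and 1.29 in Dnmt1-null. Mgea5 had more reads than Ogt in each WT replicate and fewer in each Dnmt1-null replicate. The means were 0.849 ± 0.0283 and 1.30 ± 0.0189 (SD, n = 3), and the difference of the mean log2 ratios was 0.62. In the single libraries the ratio was 0.644 in WT, 2.05 in Dnmt1-null, 1.04 with the active and 0.644 with the inactive fusion. The single Dnmt1-null library was thus also above the single WT library, and the library with the active fusion was above the library with the inactive fusion. These are ratios of reads and not of molecules, since both the lengths and the splicing of the transcripts differ.

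**Figure D2:**
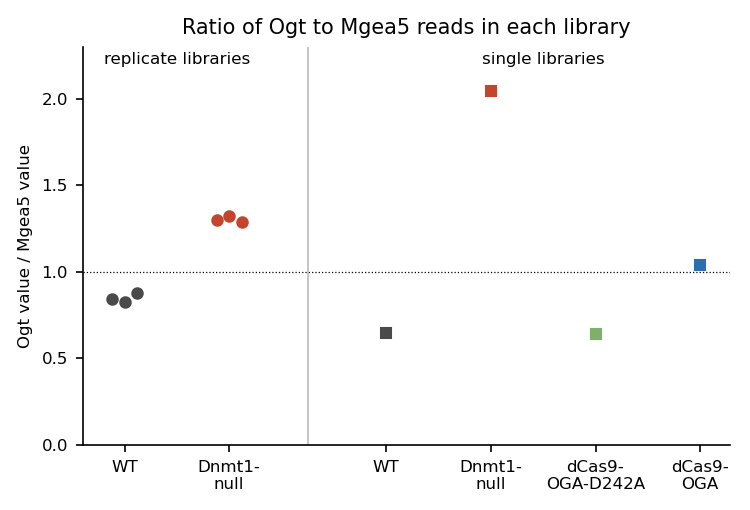
Ratio of Ogt to Mgea5 values (axis from 0, no unit) in each of the 6 replicate libraries and 4 single libraries, with a dotted line at equal values. WT replicates lie between 0.825 and 0.88 and Dnmt1-null replicates between 1.29 and 1.32; among single libraries Dnmt1-null is highest at 2.05.

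Ogt transcripts followed the same profile over the 6 libraries as a few genes of like level. After centring on the mean, the genes whose log2 profile lay closest to that of Ogt among 2965 genes within 2-fold of its level were Rlim, Atf2 and Mbtd1, with root-mean-square differences of 0.014, 0.0201 and 0.0238, where the median candidate was at 0.183. Rlim, an X-linked ubiquitin ligase, averaged 121 in WT and 161 in Dnmt1-null. For Mgea5 the closest of 3090 genes were Usp24, Gatad2b and 1810013L24Rik, at 0.0211, 0.0266 and 0.0269, with a median candidate at 0.209. The profiles share the same 6 libraries and the difference between the groups, and are a description of likeness only.

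At the first step of hexosamine synthesis the 2 GFAT genes differed in opposite directions. Gfpt1 (chr6:87042846-87092197, plus strand), the broadly expressed form, had normalized values of 58.6, 60.0 and 61.7 in WT and 88.6, 89.3 and 91.3 in Dnmt1-null. The groups were far apart relative to their spread, with a log2 difference of 0.58 (SE 0.05, adjusted p = 2.7e-10). Gfpt2 (chr11:49794178-49838613, plus strand) had 68.9, 69.2 and 74.9 in WT and 56.2, 54.6 and 59.7 in Dnmt1-null. Each Dnmt1-null library was below each WT library, with a log2 difference of −0.32 (SE 0.05, adjusted p = 1.4e-05). The other protein-coding genes of chromosome 11 had a median log2 difference of 0.38, so Gfpt2 lay 0.70 below its chromosome. In reads not scaled for length, Gfpt2 was above Gfpt1 in WT (71.0 ± 3.38 against 60.1 ± 1.58) and below it in Dnmt1-null (56.8 ± 2.62 against 89.8 ± 1.41), while per kb of exon Gfpt2 stayed above Gfpt1 in both.

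The next genes of the pathway were higher. Gnpnat1 (chr14:45376334-45404913, minus strand), the acetyltransferase, had 80.1, 64.2 and 76.4 in WT and 116, 111 and 98.1 in Dnmt1-null. Its replicates were the most scattered of the 10 genes in WT, yet the groups did not overlap, and the log2 difference was 0.56 (SE 0.07, adjusted p = 1.1e-07). Of its exonic bases, 81.9% are also covered by Styx on the opposite strand, and which strand was counted is not given in the sources used here. Styx was at 3.63 to 4.62 in WT and 4.11 to 4.21 in Dnmt1-null, far below Gnpnat1, with a log2 difference of 0.01. In the single libraries it was at 0.202 cpm in WT, 0.368 in Dnmt1-null, 0.846 with the active and 0.724 with the inactive fusion. With the strand unknown, these levels set no limit on its part in the Gnpnat1 values, which was not tested.

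Pgm3 (chr9:86554377-86571842, minus strand), the mutase that moves the phosphate of N-acetylglucosamine, had 32.7, 31.9 and 33.5 in WT and 50.1, 50.6 and 50.2 in Dnmt1-null. The replicates of each group were within a narrow range and 1.53-fold apart, a log2 difference of 0.61 (SE 0.06, adjusted p = 4.9e-10), the largest rise among the 10 genes. A gene on the opposite strand, listed as Dopey1, lies over 28.3% of its exonic bases and was at 25.3 to 27.8 in WT and 25.9 to 28.3 in Dnmt1-null (log2 difference 0.03). Dopey1 was at 4.11 cpm in the single WT library, 20.6 in Dnmt1-null, 23.5 with the active and 16.3 with the inactive fusion, the same order as that of Pgm3 there. Its part in the single-library values of Pgm3 was not tested.

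Uap1 (chr1:170141938-170174957, minus strand), which makes UDP-GlcNAc itself, had 55.9, 55.0 and 52.1 in WT and 50.3, 50.0 and 52.4 in Dnmt1-null. Its groups overlapped, and the log2 difference of −0.09 (95% interval −0.20 to 0.02, adjusted p = 0.12) was the only one of the 10 that missed the threshold. The interval leaves room for a decrease of up to 0.20 and for an increase of up to 0.02 on the log2 scale.

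The 3 genes outside synthesis were lower in Dnmt1-null. Nagk (chr6:83794982-83804018, plus strand), the kinase that returns free N-acetylglucosamine to the pathway, had 32.6, 32.4 and 32.1 in WT and 24.8, 26.3 and 25.3 in Dnmt1-null, a log2 difference of −0.34 (SE 0.06, adjusted p = 2.1e-05). Amdhd2 (chr17:24155833-24163766, minus strand), the deacetylase that takes N-acetylglucosamine-6-phosphate out of the pathway, had 54.4, 53.3 and 52.9 in WT and 32.5, 32.9 and 31.9 in Dnmt1-null. It was 1.64-fold lower, with a log2 difference of −0.71 (SE 0.05, adjusted p = 2.5e-11), the largest of the 10 genes in size. Gnpda1 (chr18:38327535-38339003, minus strand) had 91.1, 95.1 and 100.5 in WT and 81.0, 78.1 and 87.6 in Dnmt1-null. Here the gap between the groups was small beside their spread, but they did not overlap, and the log2 difference was −0.22 (SE 0.05, adjusted p = 0.0011). Medians of chromosomes 6, 17 and 18 were −0.05, 0.0046 and 0.0089 in this comparison.

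Genes around the pathway were read from 4 lists. Of the genes for substrate supply and hexosamine neighbours (glucose and glutamine transport, hexokinases, sialic acid synthesis, hexosaminidases, nucleotide sugar carriers), 24 of 25 were tested, of which 12 were higher, 6 lower and 6 not called, with a median of 0.17. That is 75.0% called. Slc35d2, a Golgi carrier of UDP-GlcNAc, was 2.55-fold higher, at 4.98 ± 0.608 in WT and 13.4 ± 1.09 in Dnmt1-null, and Slc2a1, the glucose transporter GLUT1, rose from 178 ± 10.5 to 406 ± 6.27 (2.28-fold). Hexa, a subunit of lysosomal hexosaminidase, fell from 128 ± 3.07 to 59.4 ± 3.24 (2.14-fold), and Uap1l1, a paralogue of Uap1, fell from 73.2 ± 3.21 to 43.8 ± 0.919 (1.66-fold). In the single libraries of the joint table Slc35d2 was also higher in Dnmt1-null, but Slc2a1 was lower (1798 cpm in WT and 1112 in Dnmt1-null), Uap1l1 was higher (30.3 and 40.6) and Hexa was at 46.2 and 47.2. Of the 18 genes called in this list, 13 had the opposite sign there, 11 of them beyond counting error. Among all genes measured in both sets, called or not, 44.5% were opposite. That is not the share among called genes only, and no share of all genes is given for signs beyond counting error.

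Of 23 genes for enzymes that use UDP-GlcNAc, 20 were tested, with 7 higher, 9 lower and 4 not called (80.0% called, median −0.04). Mgat3, which adds the bisecting N-acetylglucosamine of N-glycans, was at 17.5 ± 0.776 in WT and 33.0 ± 0.257 in Dnmt1-null, and Gcnt1, which branches O-glycans, at 15.3 ± 1.71 and 26.7 ± 0.567. The hyaluronan synthase genes Has1 and Has2 had the largest decreases, from 2.61 ± 0.818 to 0.387 ± 0.143 and from 16.2 ± 3.21 to 4.41 ± 0.379. In the single libraries Mgat3 (32.2 cpm in WT and 28.0 in Dnmt1-null) and Gcnt1 (14.9 and 10.2) were instead lower in Dnmt1-null, Has2 was lower too (3.79 and 1.21), and Has1 rested on 14 and 11 counts. The sign was opposite for 8 of the 16 genes called in this list, 5 of them beyond counting error. The share over all genes, called or not, was 44.5%. Hyaluronan is made by fibroblasts, and the fibroblast markers given above were lower in the same libraries; their part in these decreases was not tested.

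Of 14 genes for proteins known to bind OGT, 6 were higher, 5 lower and 3 not called (78.6% called, median 0.02). Sin3a, a corepressor scaffold that recruits OGT, rose from 36.2 ± 2.66 to 51.5 ± 2.93 (1.42-fold). The mitochondrial transport adaptors went in opposite directions, Trak2 from 60.3 ± 1.81 to 76.2 ± 1.83 and Trak1 from 124 ± 6.12 to 78.8 ± 0.916, and Hdac1 fell from 240.5 ± 3.22 to 188 ± 5.82. Sin3a, Trak1 and Hdac1 had the same sign in the single libraries and Trak2 (62.0 and 60.5 cpm) did not, with 5 of the 11 called genes of this list opposite, 4 of them beyond counting error. Of 15 genes for the unfolded protein and amino acid stress responses, 8 were higher, 4 lower and 3 not called (80.0% called, median 0.15). Hspa5, the chaperone BiP, rose from 536 ± 18.9 to 1218 ± 36.5 and Xbp1 from 92.7 ± 2.88 to 193 ± 3.36, while Chac1 fell from 47.5 ± 2.46 to 15.8 ± 0.442 and Herpud1 from 38.0 ± 1.44 to 22.0 ± 2.31. Hspa5 and Xbp1 were also higher in the single Dnmt1-null library, but so were Chac1 (6.90 cpm in WT and 8.78 in Dnmt1-null) and Herpud1 (10.8 and 13.6), and 5 of the 12 called genes were opposite, each beyond counting error. The 16 named genes were picked from those that passed the test in the replicates. That they passed (limma adjusted p of 2.7e-06 or less) follows from this choice. Of the 16, 9 had the opposite sign in the single libraries, 6 of them beyond counting error. The share over all genes, called or not, was 44.5%. The shares called in the 4 lists lay near the 71.2% of all genes, and no list moved in 1 direction.

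**Figure D3:**
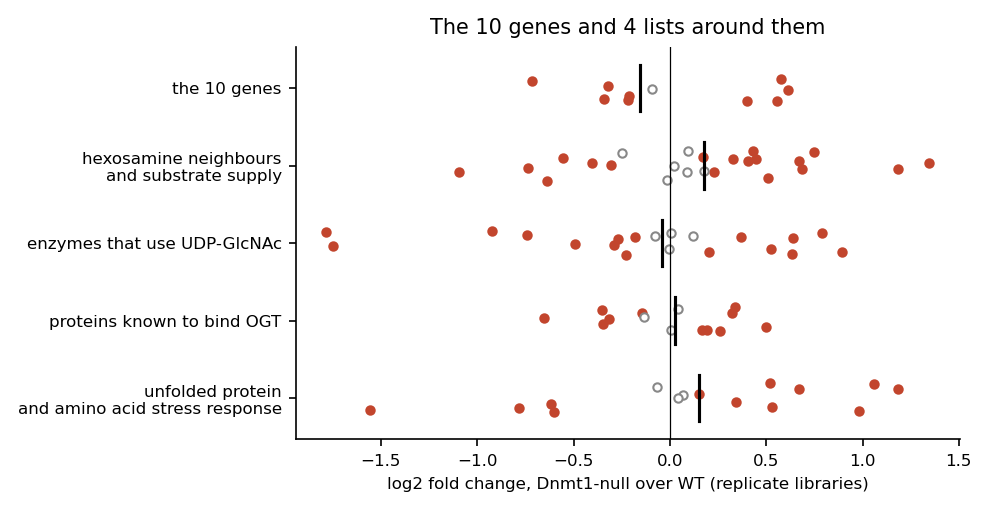
Log2 fold change of Dnmt1-null over WT in the replicate libraries for the 10 genes and 4 lists around them. Filled points passed an adjusted p of 0.05, open points did not, and black bars are medians, which lie between −0.15 and 0.17.

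A further WT and a further Dnmt1-null library allowed the same comparison outside the replicates. The labels name TopHat2 for the fusion libraries of the joint table and HISAT2 for the replicates, and between a single library and a replicate of the same group 31.0% to 45.5% of genes were at least 2-fold apart, against 0.0142% to 0.0429% between replicates. Levels were therefore compared within each table. With 1 library a group there is no replicate check, no p-value is given, and the 95% intervals (exact, Clopper-Pearson) cover counting error only. Markers of other cell types also differed between these libraries: those of 2-cell-like cells summed to 36.1 in WT and 0.524 to 1.65 in the other libraries, those of primitive endoderm to 48.2 in WT, 16.4 in Dnmt1-null and up to 34.3 in the others, and those of fibroblasts to 74.3 to 136 over the 4. Trophoblast markers summed to 119 in WT, 31.7 in Dnmt1-null, 56.4 with the active and 104 with the inactive fusion, so that Dnmt1-null was below WT in both primitive endoderm and trophoblast markers here and above it in the replicates. ES cell markers summed to 4109 in WT, 3447 in Dnmt1-null, 4997 with the active and 3184 with the inactive fusion. Their part in the values below was not tested.

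In the single libraries, Dnmt1-null was above WT by at least 1.5-fold for 2 of 10 genes and below it for none, where 19.7% of all genes were higher and 17.9% lower, 37.6% in all. These were Ogt, at 70.7 cpm in WT and 189.8 in Dnmt1-null (log2 ratio 1.42, interval 1.34 to 1.51), and Pgm3, at 18.0 and 28.9 (0.67, interval 0.50 to 0.87), which with a pseudocount of 5 cpm was at 0.56, under 1.5-fold. Dopey1, over part of its exons, went from 4.11 to 20.6 cpm in the same libraries. Ogt alone was past 2-fold, where 17.4% of all genes were. The log2 difference of Ogt was 1.42 here and 0.40 in the replicates, and that of Pgm3 0.67 and 0.61. Gfpt1 (0.27), Gnpnat1 (0.22), Mgea5 (−0.24) and Gnpda1 (−0.13) had the sign of the replicates, with intervals that left out 0. In these libraries the median over the other chromosome 19 genes was −0.20 (log2 ratio), so Mgea5 was 0.04 below its chromosome, where it was 0.21 below it in the replicates. The median of all genes was −0.07, which lies inside the interval of Gnpda1 (−0.23 to −0.03). Amdhd2, which differed most in the replicates, was at 43.0 and 42.0 cpm (−0.03, interval −0.17 to 0.10), and Nagk at 15.4 and 15.5 cpm (0.01, interval −0.21 to 0.24). For Amdhd2 the lower bound of the interval, −0.17, was well short of the −0.71 of the replicates.

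Opposite signs were found for Gfpt2, at 100.1 cpm in WT and 113 in Dnmt1-null (0.18, interval 0.09 to 0.26), and for Uap1, at 33.4 and 45.7 (0.45, interval 0.31 to 0.59), which was not called in the replicates. The sign of Nagk was opposite too, by a ratio within counting error. In all, 7 of 10 genes had the same sign in both sets (70.0%), where 55.5% of the 11686 genes measured in both did. With total gene counts or DESeq2 size factors as scaling the count was 6 of 10 (56.1% and 56.2% of all genes), since Amdhd2 then lay at 0.0085 and 0.015. Ogt, Gfpt1, Gnpnat1 and Pgm3 were higher in Dnmt1-null in both sets, and also relative to their chromosomes. With dCas9-OGA-D242A, log2 ratios to the same WT library were 0.62 for Ogt, 0.61 for Pgm3, 0.13 for Gfpt1 and −0.62 for Gnpnat1. Ogt and Pgm3 were thus above this WT library also in cells that are not Dnmt1-null. Gfpt2 had opposite signs in the 2 sets, and for Amdhd2 and Nagk the single libraries gave no direction beyond counting error. Whether the log2 differences of the 2 sets differ was not tested.

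**Figure D4:**
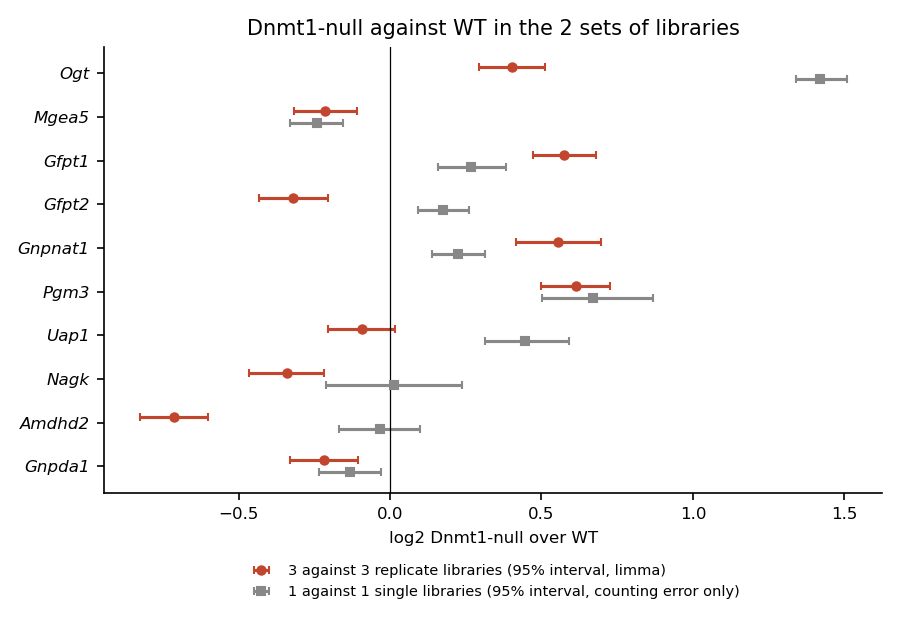
Log2 difference of Dnmt1-null and WT for each gene in 3 against 3 replicate libraries (circles, 95% interval from limma) and in 1 against 1 single libraries (squares, 95% interval for counting error only). Ogt is further from 0 in the single libraries (1.42 against 0.40), and Gfpt2 lies on opposite sides of 0.

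The libraries of the 2 fusions asked what an O-GlcNAcase brought to IAP elements changes in RNA, with the inactive D242A form as control. Each fusion had 1 library, from its own recombinant cells. The activity of the enzyme and a difference between these cells therefore cannot be told apart. Ogt was at 179 cpm with the active and 109 with the inactive enzyme, a log2 ratio of 0.71 (interval 0.65 to 0.79). Mgea5, at 172 and 169 cpm, was at 0.02 (interval −0.04 to 0.09). The library with the active enzyme thus had more Ogt reads and about as many Mgea5 reads.

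Of the 10 genes, 3 were at least 1.5-fold higher with dCas9-OGA than with dCas9-OGA-D242A and none at least 1.5-fold lower, where 13.2% of all 12722 genes compared were higher and 15.2% lower. Besides Ogt these were Pgm3, at 43.4 and 27.6 cpm (log2 ratio 0.64, interval 0.51 to 0.79), and Gnpda1, at 157 and 87.6 cpm (0.84, interval 0.77 to 0.92). With a pseudocount of 5 cpm Pgm3 was at 0.57, under 1.5-fold, and 2 genes were left. Dopey1 was at 23.5 and 16.3 cpm in the same libraries. Both directions together, 3 of 10 compare with 28.3% of all genes. None of the 10 was 2-fold apart, where 12.1% of all genes were. Gfpt1, at 83.9 and 60.3 cpm, had a log2 ratio of 0.47 (interval 0.38 to 0.57), Nagk, at 12.2 and 8.73, one of 0.46 (interval 0.23 to 0.74), and Amdhd2, at 40.5 and 31.8, one of 0.34 (interval 0.21 to 0.48).

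Gnpnat1 was lower with the active enzyme, at 41.7 cpm against 58.3 (−0.48, interval −0.60 to −0.37). Gfpt2, at 176 and 188 cpm (−0.09, interval −0.15 to −0.03), and Uap1, at 54.4 and 54.3 cpm (0.00, interval −0.11 to 0.11), were close. The median log2 ratio of the 10 genes was 0.40 and of all genes 0.03, and the median size without sign 0.47 and 0.34.

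Whole chromosomes also differed between these libraries. The median log2 ratio of protein-coding genes was −0.46 on chromosome 11, which holds Gfpt2, and 0.40 on chromosome 1, which holds Uap1, so relative to its chromosome Gfpt2 was 0.36 higher and Uap1 0.40 lower. The chromosomes of Ogt (X, 0.05), Pgm3 (9, 0.15), Gnpda1 (18, 0.13) and Gfpt1 (6, 0.07) had medians below the values of those genes, and that of Gnpnat1 (14) had a median of 0.18 where the gene was at −0.48. The part of the chromosomes in the values of Gfpt2 and Uap1 was not tested.

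Both fusions were also set beside the single WT library, and these contrasts share that library. Against WT, 7 genes were at least 1.5-fold higher and 1 lower with dCas9-OGA (24.5% and 21.7% of all genes, 46.1% together). With dCas9-OGA-D242A, 5 were higher and 2 lower (23.7% and 19.7%, 43.4% together), and with a pseudocount of 5 cpm 4 higher and none lower, since Pgm3 (0.51), Gnpnat1 (−0.58) and Nagk (−0.57) then lay under 1.5-fold. At 2-fold, 4 genes were past it with dCas9-OGA (23.8% of all genes) and none with dCas9-OGA-D242A (20.8%). Ogt had log2 ratios to WT of 1.33 with dCas9-OGA and 0.62 with dCas9-OGA-D242A, and Pgm3 of 1.25 and 0.61. Both genes therefore stood above WT in both, and further above it with the active enzyme.

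Mgea5 had log2 ratios to WT of 0.64 and 0.62, Gfpt2 of 0.81 and 0.91 and Uap1 of 0.69 and 0.69, so these were above WT with both fusions. The median of chromosome 1 against WT was 0.46 with the active and 0.04 with the inactive fusion, so relative to its chromosome Uap1 was 0.23 and 0.65 higher. That of chromosome 11 was −0.31 and 0.22, so Gfpt2 was 1.12 and 0.68 above its chromosome. Gnpda1 was at 1.02 and 0.18 and Gfpt1 at 0.61 and 0.13, with the greater part in the active fusion. Gnpnat1 was below WT in both, at −1.10 and −0.62. Nagk was at −0.32 and −0.78 and Amdhd2 at −0.08 and −0.43, both lower with the inactive fusion. The fusion, the doxycycline, the selection of recombinant cells and the source of the WT library cannot be told apart in the contrasts with WT.

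**Figure D5:**
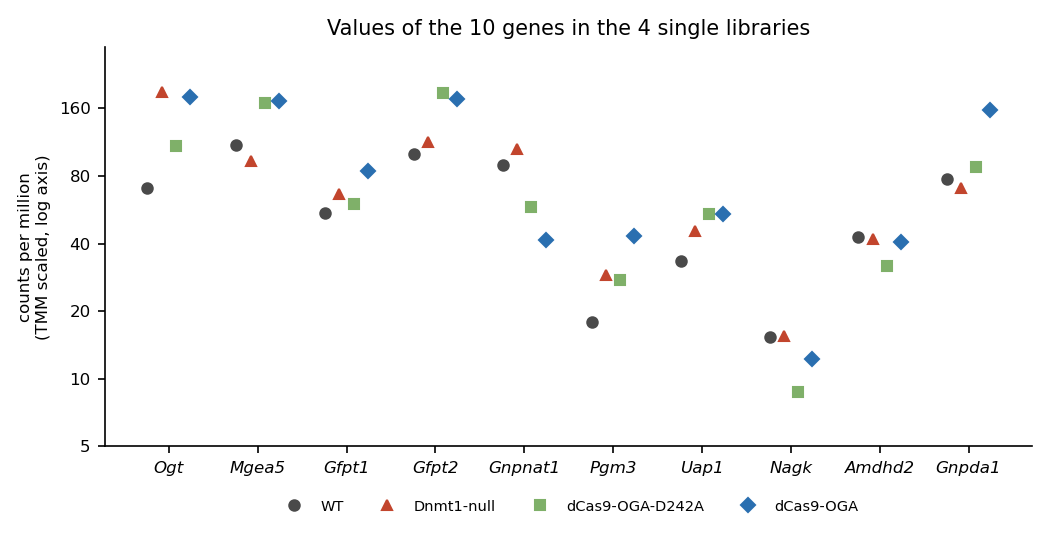
Values in cpm (TMM scaled, log axis) of the 10 genes in the single WT, Dnmt1-null, dCas9-OGA-D242A and dCas9-OGA libraries, 1 library each and no error. Ogt lies at 70.7 in WT and 179 in dCas9-OGA; Gnpnat1 is lowest in dCas9-OGA, at 41.7.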

How the data were processed

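RNA-seq of 6 replicate and 4 single ES cell libraries was used; 3 O-GlcNAc ChIP and 2 input samples were left out. Mapping by the authors was to mm10 (the labels list HISAT2 2.1.0, TopHat2 2.0.11 and Bowtie2 2.2.2) with reads counted on Ensembl release 87 genes with featureCounts 1.5.0. The strand setting of the counting is not given in the sources used here. For the single libraries the authors deposited whole counts per gene, and the files of the fusion libraries equalled the joint table in 49671 of 49671 genes. For the replicates the authors deposited a signal, which is counts divided by a scaled library size; its column headers were shifted against the columns and were read by position. Whole reads were recovered from 100% of values (tolerance 0.01), and 26679 and 49326 gene identifiers matched GENCODE vM21, from which coordinates and exon lengths were taken.

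Replicates were tested with limma 3.58.1 (trend) on log2(value + 0.5) over 17297 genes with enough reads (edgeR's filterByExpr), with Benjamini-Hochberg adjustment at 0.05; fold changes on this scale understate those of low genes. Single libraries were scaled with TMM and compared on log2(cpm + 0.5) among genes with at least 100 counts over both libraries. The members and lists were chosen with earlier results of these data known. Genes named were the 10 members, Dnmt1, from each list the 2 called genes that rose most and the 2 that fell most, the 3 genes with the profile nearest to Ogt and to Mgea5, and genes over their exons or among the markers. Alternatives were DESeq2 1.42.0 and edgeR's quasi-likelihood test (4.0.16) on recovered reads, TMM scaling, no filter, other pseudocounts, a replicate block, left-out replicates, a 2-fold threshold and transcript length. The limma and count steps were tested on simulated data. Same-numbered replicates were not paired by the labels. Fits ran in R 4.3.3 and figures in matplotlib 3.10.9, with tables and intervals from SciPy 1.17.1, NumPy 2.4.6 and pandas 2.3.3 under Python 3.11.15.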

Additional observations from a re-analysis of the deposited data

Results flagged for a closer look

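Gfpt2, one of the genes for the first enzyme of hexosamine synthesis, had opposite signs in the 2 sets of libraries that compared Dnmt1-null with WT. In the replicates all 3 Dnmt1-null libraries (54.6 to 59.7) were below all 3 WT libraries (68.9 to 74.9), with a log2 difference of −0.32. In the single libraries Dnmt1-null was above WT, at 113 against 100.1 cpm, a log2 ratio of 0.18 with a counting interval of 0.09 to 0.26. The difference between the sets was not tested, since the single set has 1 library a group and the tables were normalized separately. The median of chromosome 11 was 0.38 in the replicates and 0.15 in the single libraries. Opposite signs were common: 44.5% of the 11686 genes measured in both sets, called or not, had them. Among the named genes of the lists around the pathway, with replicate groups that did not overlap, the log2 ratio in the single libraries was −0.69 for Slc2a1, −0.53 for Gcnt1 and −0.20 for Mgat3, which were higher in the replicates, and 0.41 for Uap1l1, 0.33 for Chac1 and 0.31 for Herpud1, which were lower. These differences were not tested either.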

How the results depend on the processing

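For Dnmt1-null against WT in the replicates, 9 of the 10 genes passed the threshold under each of the 13 alternatives run, each gene kept its direction, and Uap1 stayed outside it (adjusted p 0.066 to 0.29). The log2 difference of Ogt ranged from 0.37 to 0.45, of Amdhd2 from −0.73 to −0.70 and of Gnpnat1 from 0.46 to 0.62. Leaving out each replicate gave 11616 to 12128 calls over all genes, where the full set gave 12324, edgeR 12252, DESeq2 11404 and no filter 13271. The difference of the mean log2 ratios of Ogt to Mgea5 was 0.60 to 0.64 with each replicate left out. Same-numbered replicates deviated together with r of −0.016 to 0.074, and differently numbered ones with r of −0.084 to 0.0090. These values do not settle whether the numbers mark a pairing. The fit with the replicate block gave 9 of 10 genes and 12556 of all genes. Counts in the single libraries moved with the threshold: at 2-fold, 0 genes were past it for dCas9-OGA against dCas9-OGA-D242A, 4 for dCas9-OGA against WT, 0 for dCas9-OGA-D242A against WT and 1 for Dnmt1-null against WT. With a pseudocount of 5 cpm, 4 in place of 7 genes were past 1.5-fold for dCas9-OGA-D242A against WT and 1 in place of 2 for Dnmt1-null against WT. With the longest transcript as length, the highest WT level was 4.34 times the lowest, where exon length gave 3.72. The other 101 recomputed counts and summary values stayed within 1.5 times the value given, among them the count of genes with the same sign in both sets (6 or 7, alternatives chosen after seeing the data). Of the log2 ratios of single genes, 2 moved outside their counting interval, both with a pseudocount of 5 cpm: Pgm3 in dCas9-OGA against WT to 1.07, and Nagk in dCas9-OGA-D242A against WT to −0.57. Ratios near 0 moved more in proportion, such as Gfpt2 in dCas9-OGA against dCas9-OGA-D242A (−0.10 to −0.04). With 1 library per condition, differences in the single libraries have no replicate error, and a line difference between WT and Dnmt1-null cells cannot be separated from genotype.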
